A study of Homo sapiens with 16 samples.

Results

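The genes described here are 10 genes of the extracellular matrix, FN1, FBN1, FBLN1, THBS1, THBS2, TNC, POSTN, TGFBI, CCN1 and SPARC, out of 20121, 27650 and 21093 genes in the 3 bulk RNA tables and 36601 genes in the single-cell matrices. They were chosen by name, with their culture-day values known: 9 of them were higher on the last day and SPARC moved against the other members with culture day. Every culture-day value of the 10 genes is therefore given as a description with no p-value, and counts of members called between days are given only beside the share of all genes called. Earlier results of these data were known when the members and the gene lists were chosen. The p-values and counts of calls for TNF may thus not be independent of that choice. All 10 genes were listed in each of the 3 bulk tables and in both single-cell matrices, so none was lost to a filter on low values.

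Kidney organoids are small tissues grown from pluripotent stem cells that hold podocytes, tubule cells and stromal cells, and all libraries came from organoids of the human embryonic stem cell line UM77-2, so they stand for 1 line. Set 1 held 1 bulk library each of Day 21, Day 25 and Day 29 organoids, and set 2 held 2 bulk libraries (Org1 and Org2) for each of these days. The TNF set held Day 25 organoids given VC (the vehicle, DPBS) or 5 ng/ml recombinant human TNFα for 24 h or 48 h, with 1 bulk library for each treatment and time. In the single-cell experiment whole wells were collected on day 24, with 1 control library (labelled Ctrl 24h, the vehicle control, called VC here) and 1 library after 24 h of TNFα, whereas the bulk RNA came from isolated spheroids. A further single-cell sample labelled D25 NLW50 Ctrl was not analysed here. No library carried a genetic change, and nothing in the labels says whether Org1 and Org2 came from separate differentiations, so the spread between them may be technical.

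The matrix around cells is built of fibres, and the fibres are tuned by matricellular proteins, which bind cells and growth factors more than they bear load. Fibronectin (FN1) is assembled by integrins into the first provisional mesh, fibrillin-1 (FBN1) forms microfibrils that hold latent TGF-β, and fibulin-1 (FBLN1) links fibronectin, elastic fibres and basement membrane. Thrombospondins, tenascin-C, periostin, the TGF-β induced protein TGFBI, CCN1 and SPARC are released mainly in development and repair. In the kidney they are known from the interstitium and mesangium and from fibrosis, and SPARC is also made by podocytes.

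The bulk values are log2(CPM + 1), where CPM is a gene's reads scaled to the depth of the library. Library totals were 25508651 to 29408687 reads in set 1, 19073609 to 30282025 in set 2 and 49948198 to 59246286 in the TNF set. Kidney markers were present in each bulk library: the summed level of 8 podocyte markers was 2800 CPM or more. In the single-cell libraries 11906 VC cells and 23160 TNF cells had over 500 detected genes, with medians of 6358.5 and 2599 UMIs per cell, and 74 cell barcodes occurred in both libraries. The least covered cell had 613 UMIs in the VC library and 1514 in the TNF library.

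The promoter letters of 5 members are shown first: FN1, THBS2, TNC and POSTN, which hold the letters of a TATA box close to the start site, and SPARC, which like FBN1, FBLN1, THBS1 and TGFBI does not. Each line gives the 250 bases before the RefSeq start site (build GRCh38.p14), 5′ to 3′ on the strand of the gene, from chr2:215436069-215436318 (FN1), chr6:169253847-169254096 (THBS2), chr9:115118158-115118407 (TNC), chr13:37598769-37599018 (POSTN) and chr5:151686916-151687165 (SPARC), all on the minus strand. Capitals mark the matches to the letters searched on both strands, the TATA letters only within the last 50 bases and the others over all 250 bases.
FN1: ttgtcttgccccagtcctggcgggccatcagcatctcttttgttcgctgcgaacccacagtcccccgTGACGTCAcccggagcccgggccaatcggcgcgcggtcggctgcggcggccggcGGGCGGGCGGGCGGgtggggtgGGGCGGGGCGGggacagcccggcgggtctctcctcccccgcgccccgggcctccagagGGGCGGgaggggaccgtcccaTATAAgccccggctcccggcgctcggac
THBS2: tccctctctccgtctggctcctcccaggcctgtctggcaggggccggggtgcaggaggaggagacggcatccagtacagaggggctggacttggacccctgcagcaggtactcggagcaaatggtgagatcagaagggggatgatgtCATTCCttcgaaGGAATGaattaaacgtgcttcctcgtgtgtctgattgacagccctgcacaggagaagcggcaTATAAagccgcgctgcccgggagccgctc
TNC: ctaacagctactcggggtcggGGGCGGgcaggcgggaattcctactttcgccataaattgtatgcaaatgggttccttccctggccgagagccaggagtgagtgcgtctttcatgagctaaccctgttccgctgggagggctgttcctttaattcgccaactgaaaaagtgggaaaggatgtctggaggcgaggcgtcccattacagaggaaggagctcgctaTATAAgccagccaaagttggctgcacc
POSTN: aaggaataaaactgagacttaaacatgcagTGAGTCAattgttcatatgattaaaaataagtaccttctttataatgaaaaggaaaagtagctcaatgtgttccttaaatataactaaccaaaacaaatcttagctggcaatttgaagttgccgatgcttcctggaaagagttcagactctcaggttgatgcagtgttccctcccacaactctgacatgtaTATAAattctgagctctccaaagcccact
SPARC: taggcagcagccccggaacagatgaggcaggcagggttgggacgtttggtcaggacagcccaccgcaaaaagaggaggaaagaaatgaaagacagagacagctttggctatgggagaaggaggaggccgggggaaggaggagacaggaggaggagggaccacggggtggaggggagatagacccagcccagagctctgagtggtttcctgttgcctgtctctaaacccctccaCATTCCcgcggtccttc

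The RefSeq promoter table matched 9 of the 10 members. The TATA letters (TATAA, or TTATA on the other strand) were searched in the last 50 bases before the start and were found in 4 of the 9, against 6.08% of all 35116 promoters. In FN1 they begin 28 bases before the start, in TNC 27 bases, and in THBS2 and POSTN 29 bases. Among the other letters searched over all 250 bases, the cAMP response element (TGACGTCA, its own reverse complement) occurred in FN1 and in 1.65% of all promoters. An AP-1 element (TGAGTCA or TGACTCA) occurred in POSTN and in 4.2% of all, and a TEAD element (GGAATG or CATTCC) in FBN1, THBS1, THBS2 and SPARC and in 11.9% of all. The GC box (GGGCGG or CCGCCC) occurred in FN1, FBLN1, THBS1, TNC and TGFBI and in 42.6% of all, and overlapping copies in FN1 share capitals. None of the 9 held either of 2 full-length NF-κB consensus forms searched on both strands, which 0.322% of all promoters hold. By base composition POSTN stood at 36.4% G and C and FBLN1 at 77.6%, the ends of the range over the 9. A match of letters is a description of this window and not a site.

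With culture day, 9 members were higher on Day 29 than on Day 21 in set 1 and in both libraries of set 2, and THBS2 moved furthest while SPARC was slightly lower. The differences between Day 29 and Day 21 in set 2 ran from -0.12 (SPARC) to 4.13 (THBS2) on the log2(CPM + 1) scale, with a median of 2.21 over the 10 members and -0.02 over all genes. In set 1 the same median was 1.03 for the members. In bulk RNA, more cells of a type and more RNA per cell cannot be told apart.

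FN1 (chr2:215360440-215436073 on GRCh38, minus strand) stood at 7.03 and 6.71 in the Day 21 libraries of set 2, at 8.74 and 8.77 on Day 25 and at 8.76 and 9.19 on Day 29. Set 1 gave 8.14, 8.77 and 9.12 on the same days. Most of the FN1 step therefore lay before Day 25, at 89.6% of the Day 21 to Day 29 difference in set 2, and the Day 25 and Day 29 libraries overlapped. FBN1 (chr15:48408313-48645721, minus strand) had 7.0 and 6.72 on Day 21, 8.56 and 8.61 on Day 25, and 8.95 and 9.39 on Day 29, with 7.43, 8.73 and 9.32 in set 1. No 2 days of FBN1 overlapped in set 2, and the difference of 2.31 (SE 0.15) was a 4.97-fold change of CPM + 1. FBLN1 (chr22:45502238-45601135, plus strand) had 6.92 and 7.04, then 7.14 and 7.23, then 7.54 and 7.96, with 7.14, 7.75 and 7.97 in set 1. It moved least of these matrix scaffold genes, by 0.77 (SE 0.13), and 26.0% of its difference in set 2 was reached by Day 25. In set 1 more of it lay before Day 25, at 0.61 of a difference of 0.84.

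Of the thrombospondins, secreted trimers that bind CD36, CD47 and integrins, THBS1 activates latent TGF-β and THBS2 lacks the residues for it. THBS2 (chr6:169215780-169254050, minus strand) had 2.34 and 1.96 on Day 21, 4.55 and 4.26 on Day 25, and 5.89 and 6.67 on Day 29. In set 1 it had 2.80, 5.33 and 6.60. The difference of 4.13 (SE 0.25) between Day 29 and Day 21 was a 17.5-fold change of CPM + 1, and it was 4.56 log2 units when fitted to recovered reads with edgeR, since adding 1 CPM shrinks the change of a low gene. THBS1 (chr15:39581079-39599466, plus strand) had 6.92 and 6.88, then 7.55 and 7.57, then 7.81 and 7.67, with 6.76, 7.30 and 7.46 in set 1. Its days did not overlap in set 2, and its difference between Day 29 and Day 21 was 0.84 (SE 0.07). Exons of THBS2 share 2249 bases with the antisense gene THBS2-AS1, and those of THBS1 share 448 bases with FSIP1 and 411 with THBS1-AS1. The strand setting of the read counting was not given in the sources used here, so reads of these partners cannot be told apart.

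Tenascin-C (TNC), periostin (POSTN) and TGFBI are adhesion-modulating proteins, and POSTN and TGFBI are paralogs that share fasciclin domains. TNC (chr9:115019575-115118207, minus strand) had 4.36 and 4.35 on Day 21, 6.03 and 6.31 on Day 25, and 6.61 and 6.93 on Day 29, with 5.70, 6.23 and 6.74 in set 1. POSTN (chr13:37562583-37598844, minus strand) had 7.28 and 6.54, then 8.76 and 8.70, then 9.28 and 9.56, with 8.88, 9.76 and 10.00 in set 1. TGFBI (chr5:136028988-136063818, plus strand) had 6.41 and 5.82, then 7.86 and 7.92, then 8.43 and 8.90, with 7.12, 8.53 and 8.83 in set 1. The Day 29 minus Day 21 differences in set 2 were close to each other, at 2.41 (SE 0.13) for TNC, 2.51 (SE 0.21) for POSTN and 2.55 (SE 0.20) for TGFBI. In set 1 they were 1.05, 1.12 and 1.71.

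CCN1 (chr1:85580761-85584589, plus strand), an integrin-binding early-response protein, had 5.34 and 4.88 on Day 21, 5.65 and 5.34 on Day 25, and 5.46 and 5.58 on Day 29 in set 2. The days differed little there, with Day 25 overlapping both other days, and Day 29 lay 0.41 (SE 0.16) above Day 21. In set 1 CCN1 had 3.89, 5.63 and 4.91, so the middle day was highest. SPARC (chr5:151661096-151686975, minus strand), which binds collagen and calcium, had 10.62 and 10.70, then 10.57 and 10.62, then 10.56 and 10.51 in set 2, and 10.40, 10.18 and 10.26 in set 1. Its Day 29 values lay just below its Day 21 values, by -0.12 (SE 0.11) in set 2 and -0.13 in set 1. As for the other members, limma pulls this SE toward a trend shared by all genes. It therefore does not measure the spread of SPARC itself, whose SDs in set 2 were 0.05, 0.04 and 0.04 on Day 21, Day 25 and Day 29.

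**Figure D1:**
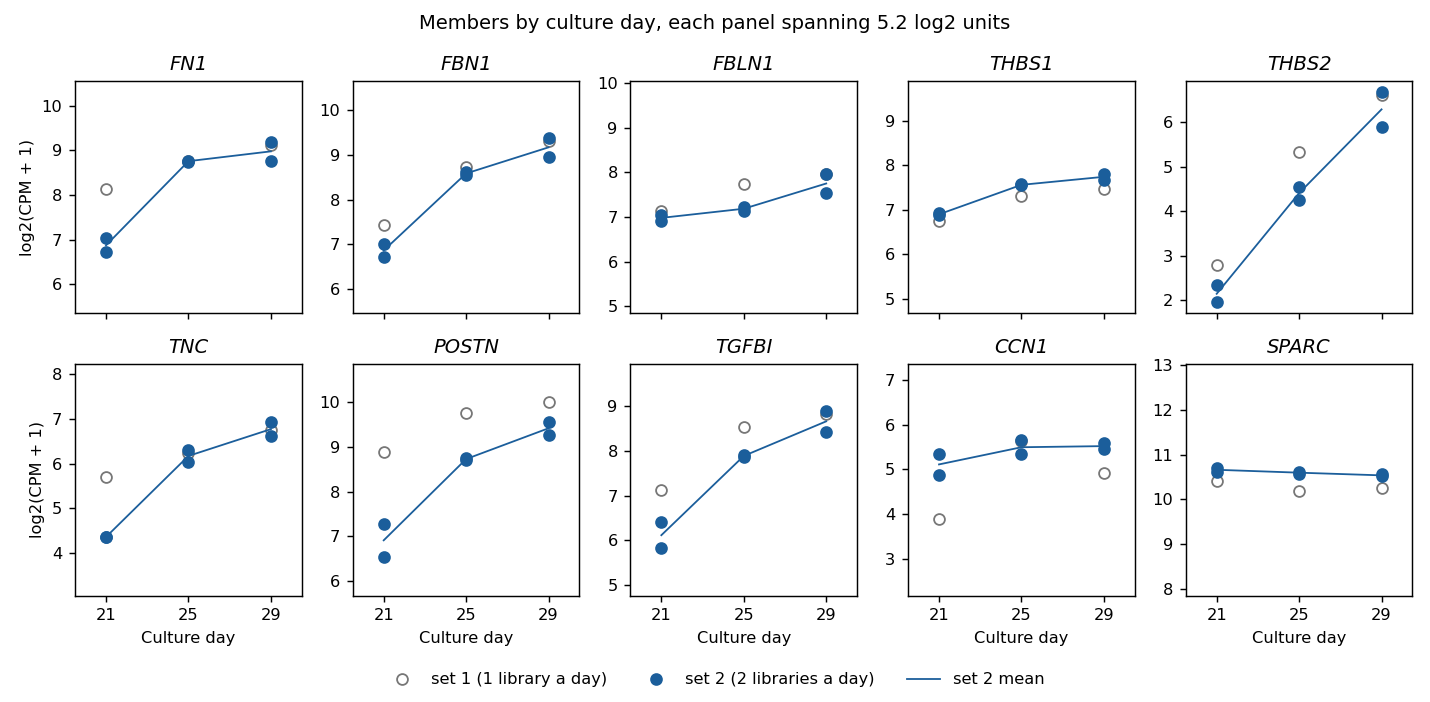
Level of each member as log2(CPM + 1) against culture day, with open points for the single libraries of set 1, filled points for the 2 libraries per day of set 2 and a line through the set 2 means. THBS2 climbed from 2.34 and 1.96 to 5.89 and 6.67 in set 2, and SPARC stayed between 10.51 and 10.70.

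By limma with Benjamini-Hochberg adjustment over all 27650 genes of set 2, 8 members were called at an adjusted p under 0.05 between Day 29 and Day 21, all higher, beside 18.4% of all genes called in either direction, 10.0% called higher and 8.33% called lower. Since culture day chose the members and the 3 day contrasts share their libraries, nothing is read from this count or from those of the other day contrasts. Of all called genes 54.7% were higher, and 34.0% with each library centred on its median, a setting that moved the median of all genes from -0.02 to -0.12. Between Day 25 and Day 21, 7 members were called (all but FBLN1, CCN1 and SPARC), all higher, beside 5.37% of all genes, 3.39% higher and 1.99% lower. Between Day 29 and Day 25 the single member called was THBS2, higher, beside 2.08% of all genes, 1.25% higher and 0.825% lower, and with other settings 0 to 6 members were called. The THBS2 difference between these days was 1.87 (SE 0.25), and 1.48 to 2.26 when 1 library was left out at a time. Counting libraries that do not overlap, both Day 29 libraries lay above both Day 21 libraries for 9 members, beside 27.1% of all genes, and below for SPARC, beside 32.8%. For Day 25 over Day 21 the counts were 8 above (24.4% of all genes) and 1 below, SPARC (25.6%), and for Day 29 over Day 25 they were 7 above (22.1%) and 1 below, SPARC (25.5%). In set 1, 9 members were higher by any amount on Day 29 than on Day 21 (49.5% of all genes), 9 on Day 25 than on Day 21 (51.8%) and 9 on Day 29 than on Day 25 (49.9%). By at least 1 log2 unit 6, 4 and 1 members were higher in these comparisons, beside 3.09%, 1.35% and 0.393% of all genes.

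Cell type markers moved with culture day too. In set 2, 7 of 8 stromal markers and 5 of 7 mural markers were called higher on Day 29 than on Day 21, none of either list lower, and 6 of 8 podocyte markers and 6 of 9 proximal tubule markers were called lower, none higher. The summed level of the stromal markers was 5030 and 4410 CPM on Day 21 and 14400 and 17800 CPM on Day 29, that of the podocyte markers 11200 and 11900 against 7670 and 3610, that of the mural markers 822 and 868 against 1140 and 1280, and that of the proximal tubule markers 1140 and 916 against 537 and 421. Of the other lists, 6 of 8 muscle markers (77.5 and 111 CPM against 236 and 201) and 8 of 8 neuronal markers (537 and 573 against 970 and 1450) were called higher and none lower, and 2 of 8 early nephron markers were called higher and 4 lower (2310 and 2490 against 1530 and 1480). Of 8 neural progenitor or glial markers 5 were called higher and none lower (131 and 160 against 172 and 237). In set 1 the muscle sum also rose, from 81.3 CPM on Day 21 to 331 CPM on Day 29. The neuronal sum (1480 and 1260) and the neural progenitor or glial sum (351 and 252) fell there, and the early nephron sum was 1480 on both days. In the set 2 libraries the 10 members summed to 2370 and 2310 CPM on Day 21 and to 4010 and 4670 CPM on Day 29. SPARC, the member with the highest level, is part of this sum and hardly moved. It had 10.62 and 10.70 log2(CPM + 1) on Day 21 and 10.56 and 10.51 on Day 29. The sum therefore rises less than a sum of the other members would. The part of these markers in the members' values was not tested.

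Per kilobase of exon SPARC stood first of the 10 members in each bulk library. It ranged from 249 to 291 CPM per kb in set 1, 315 to 358 in set 2 and 356 to 419 in the TNF set. POSTN was second in set 1 and in the TNF set, at 85.9 to 187 and 67.2 to 81.1 CPM per kb, and at rank 2 or 3 in set 2, at 16.9 to 138. THBS2 was last in each TNF library, at 1.32 to 1.93 CPM per kb, and its level per length moved from 0.401 to 14.0 across set 2. In between, the ranges of TGFBI, FBLN1, FN1, FBN1 and THBS1 overlapped within set 2, so their order there depended on the day. CCN1 had rank 3 in all 4 TNF libraries, at 43.7 to 53.9 CPM per kb, and ranks 5 to 10 in the other tables, where it reached at most 13.3. Each table holds its own set of libraries, and a difference between tables cannot be told apart from a difference between those sets. Levels are therefore ordered within a table and not between tables.

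**Figure D2:**
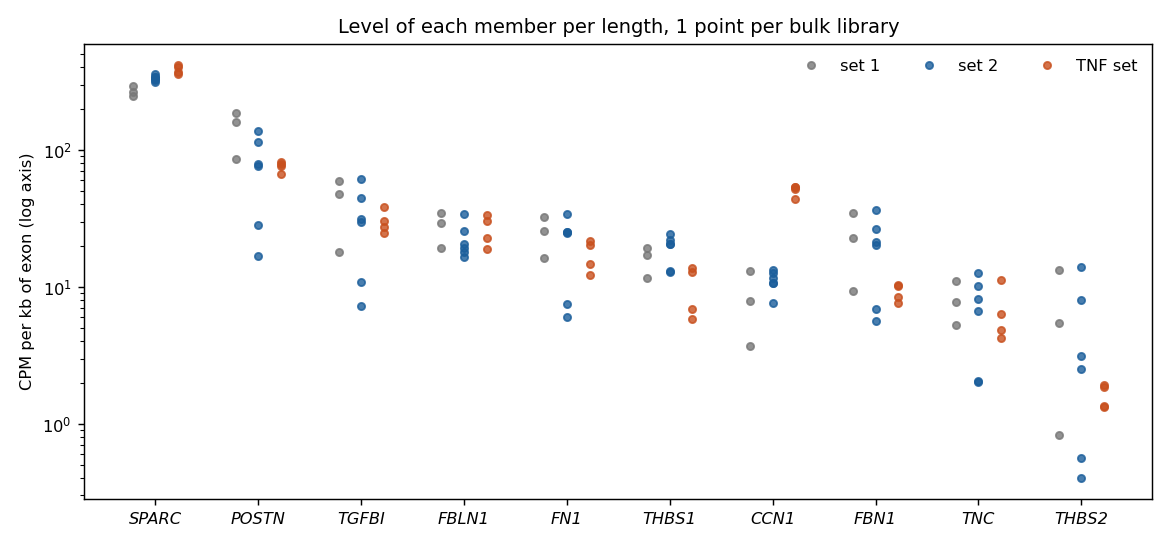
CPM per kilobase of exon on a log axis for each member, 1 point per bulk library, coloured by table. SPARC is above the other members in all libraries, and THBS2 spreads widest in set 2, from 0.401 to 14.0.

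TNFα is an inflammatory cytokine that acts through NF-κB, and the TNF set asks how organoids respond to it. With TNFα, 6 of the 10 members were higher than with VC: TNC, FN1, FBLN1, THBS2, TGFBI and FBN1. SPARC was lower at both times without passing the test, and THBS1, POSTN and CCN1 did not pass it either. The test was limma on 4 libraries with time as a term, each time with 1 library per arm. Its error is the spread of the treatment difference between the 2 times, pulled toward a trend shared by all genes. TNC (1.20 at 24 h and 0.58 at 48 h) and THBS2 (0.47 and 0.46) thus had the same SE, 0.10. An SE or p-value here does not measure how closely 1 gene repeated between the times.

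TNC gave the widest difference, at 5.57 with VC and 6.77 with TNF at 24 h and at 5.38 and 5.96 at 48 h. It was higher with TNF at both times, by 1.20 and 0.58, with a common difference of 0.89 (SE 0.10, limma adjusted p 4.35e-06). In fits with 1 library left out and no time term, the difference was 0.48 without TNF 24h and 1.3 without TNF 48h. FN1 had 7.72 and 8.44 at 24 h and 8.0 and 8.53 at 48 h, a common difference of 0.63 (SE 0.06, limma adjusted p 1.18e-06). FBLN1 followed FN1 closely, at 7.11 and 7.80 at 24 h and 7.38 and 7.92 at 48 h, a difference of 0.61 (SE 0.06, limma adjusted p 1.15e-06). For both genes each TNF library lay above the VC library of its time by at least 0.53.

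THBS2 had 3.43 and 3.90 at 24 h and 3.39 and 3.85 at 48 h, so the differences at the 2 times, 0.47 and 0.46, were almost equal (limma adjusted p 0.00279). TGFBI had 7.58 and 8.21 at 24 h and 7.72 and 7.87 at 48 h. Its difference was 0.63 at 24 h and 0.15 at 48 h (limma adjusted p 0.00267 for the common difference of 0.39, SE 0.08). In fits with no time term the difference of TGFBI was 0.22 without TNF 24h and 0.56 without TNF 48h. FBN1 had 7.15 and 7.60, then 7.30 and 7.55, a common difference of 0.35 (SE 0.07, limma adjusted p 0.000763). These 3 members were higher with TNF at each time, by less than TNC and FN1.

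THBS1 had 6.90 and 6.99 at 24 h and 6.0 and 5.77 at 48 h. It was lower at 48 h than at 24 h in both arms, by -0.89 with VC and -1.22 with TNF, while the treatment difference was -0.07 (SE 0.08, limma adjusted p 0.596). Fits with 1 library left out had no time term and so also held this gap between the 24 h and 48 h libraries. They gave -0.68 without TNF 24h and 0.54 without TNF 48h. POSTN had 8.70 and 8.76, then 8.79 and 8.53, a difference of -0.11 (SE 0.07, limma adjusted p 0.367). CCN1 had 7.64 and 7.65 at 24 h and 7.34 and 7.60 at 48 h, a difference of 0.13 (SE 0.07, limma adjusted p 0.211). SPARC had 10.87 and 10.74 at 24 h and 10.93 and 10.69 at 48 h, a difference of -0.18 (SE 0.07, limma adjusted p 0.0834), lower in both TNF libraries.

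**Figure D3:**
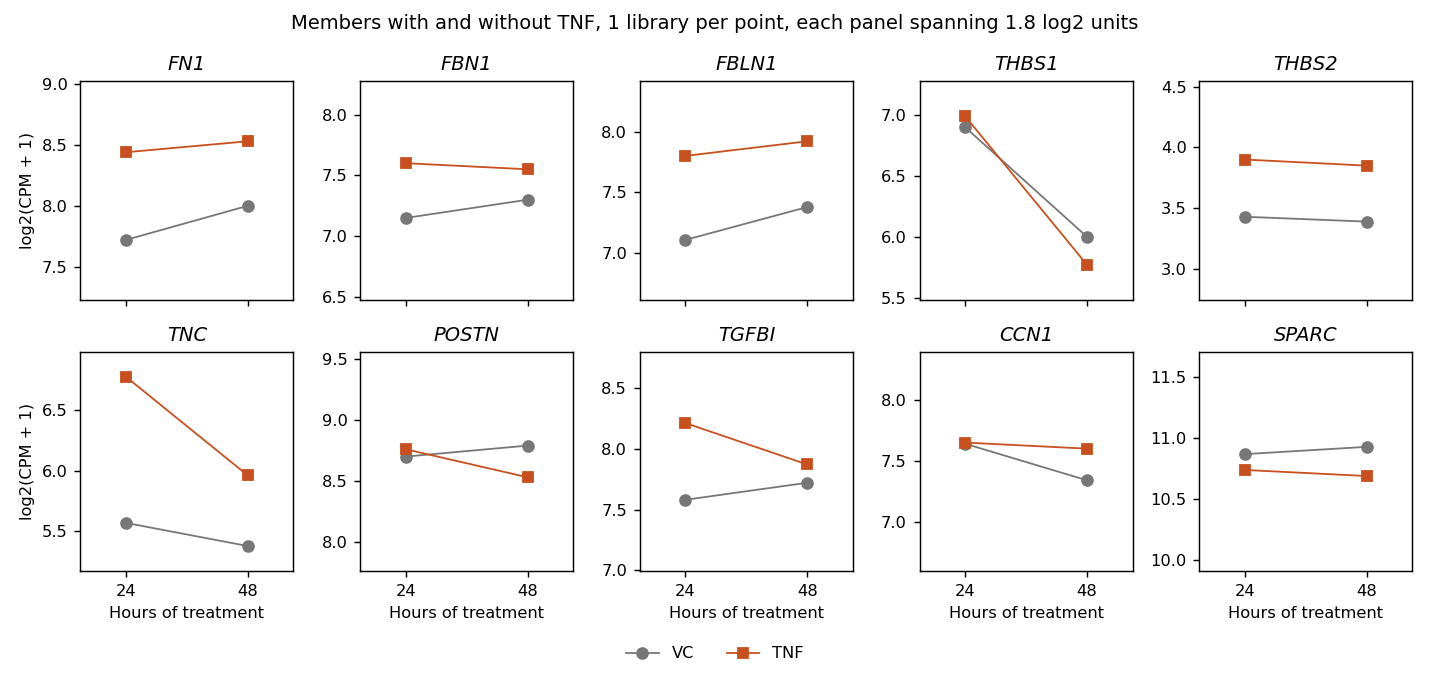
Level of each member as log2(CPM + 1) against hours of treatment, grey circles for VC and orange squares for TNF, 1 library per point. TNC lies highest above its VC libraries, by 1.20 at 24 h, and THBS1 is lower in the 48 h than in the 24 h library of both arms.

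The 6 members called were all higher, beside 19.3% of all genes called in either direction, 8.42% called higher and 10.8% called lower. Higher genes made up 43.7% of all called genes by limma and 55.3% by DESeq2. The median difference was 0.37 over the 10 members and -0.03 over all genes. TNF lay above VC at both times for 7 members, beside 28.6% of all genes, and below at both times for SPARC, beside 39.7%. At 24 h 4 members were higher by at least 0.5 log2 units, beside 3.97% of all genes, and at 48 h 3 were, beside 3.86%. A change of at least 1 log2 unit in either direction was seen for TNC alone at 24 h, beside 2.01%, and for 0 members at 48 h, beside 1.82%. With treatment as the only term, 2 members were called (FN1 and FBLN1) on all 4 libraries, beside 1310 of the 21093 genes. When 1 library was left out as well, 638 to 738 genes were called in all, with 1 member without the VC 24h library (FN1), 2 without TNF 24h or without VC 48h (FN1 and FBLN1 each time), and 2 without TNF 48h (TNC and TGFBI). TGFBI also lost its call with DESeq2, at an adjusted p of 0.491, and by limma without the trend, at 0.0711, and SPARC was called lower when no 1 was added to the CPM, at an adjusted p of 0.0275 by limma.

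In the same 4 libraries all 8 podocyte markers were called lower with TNF and 8 of 9 proximal tubule markers were called lower, while 5 of 7 mural markers were called higher and 1 lower and 4 of 8 stromal markers were called higher and 2 lower. The podocyte markers summed to 7040 and 6540 CPM with VC and to 4300 and 3190 CPM with TNF at 24 h and 48 h. The stromal markers summed to 6630 and 8210 CPM with VC and to 8460 and 8870 CPM with TNF, the mural markers to 740 and 773 against 947 and 893, and the proximal tubule markers to 934 and 942 against 423 and 473. Their part in the members' values was not tested.

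Of 59 related matrix genes in the families, receptors and crosslinkers around the members, 56 were listed in set 2 and 56 in the TNF set. Between Day 29 and Day 21, 25 were called higher and 8 lower (58.9% called, beside the 18.4% of all genes). Those furthest up were ELN, the elastic fibre protein, by 3.83 (SE 0.28), MFAP4, a microfibril protein, by 3.25 (SE 0.21), SPARCL1, the closest relative of SPARC, by 3.09 (SE 0.20), and the fibulin FBLN5 by 2.94 (SE 0.21). The furthest down were CCN2, a relative of CCN1, by -2.08 (SE 0.18), the latent TGF-β binding protein LTBP2 by -0.93 (SE 0.17), EFEMP1 by -0.92 (SE 0.10) and the syndecan SDC2 by -0.85 (SE 0.16). Relatives of SPARC and CCN1 were mixed: 4 of 7 of the SPARC family were called higher and none lower, with SMOC1 at 0.02 and SMOC2 at -0.17, and of 4 of the CCN family CCN4 was called higher (1.49), CCN2 and CCN6 lower and CCN3 was at -0.09. SMOC1, SMOC2, CCN3, CCN4 and CCN6 were named after their values were seen.

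With TNFα, 23 of the 56 related genes were called higher and 11 lower (60.7% called, beside the 19.3% of all genes). LTBP2 rose most, by 3.36 (SE 0.09, limma adjusted p 3.79e-14), followed by the lysyl oxidase relatives LOXL4 at 1.30 (SE 0.11) and LOXL2 at 1.28 (SE 0.07), which crosslink collagen and elastin, and the SPARC relative SMOC2 at 1.18 (SE 0.07). Vitronectin (VTN) fell most, by -1.70 (SE 0.14), and ITGB3, SMOC1 and SDC2 fell by -0.49, -0.48 and -0.41. Of the integrins and other receptors that bind the members, 8 of 16 were called higher with TNFα and 5 lower. LTBP2 thus moved in opposite directions with culture day and with TNFα, and SDC2 was lower in both comparisons.

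The single-cell libraries show which cells carried the members' RNA. Cells were clustered without the members and the related genes, and clusters were named from fixed markers. In the VC library 2570 cells were stromal-like, 1390 podocyte-like, 1268 proximal tubule-like, 1426 neuronal-like, 835 neural progenitor or glial-like, 826 coelomic epithelium-like, 377 proliferating-like and 242 muscle-like, and 2972 stayed unnamed. Values are CPM, here a gene's UMIs scaled to the depth of its class. Bounds in parentheses are 95% limits (exact Poisson) for the error of counting alone. In the VC library podocyte markers summed to 328 CPM in stromal-like cells and stromal markers to 1140 CPM in podocyte-like cells, and the part of RNA from other cells in the low levels of the members was not tested. Each condition had a single library, so there is no test, and levels are compared between classes within a gene.

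In the VC library 6 members were highest in stromal-like cells among the named classes: FN1, FBN1, THBS2, POSTN, TGFBI and CCN1. The stromal-like class had 7 of 8 stromal markers raised over the other cells, but also 4 of 7 mural markers. Mural markers summed to 1420 CPM there and to 195 CPM in podocyte-like cells of the VC library. No mural-like class stood apart, so levels in stromal-like cells may not be those of stromal cells alone. Stromal-like cells held 13.6% of all VC UMIs and 61.2% of those of THBS2, 59.5% of TGFBI, 51.7% of FBN1, 50.6% of POSTN, 38.9% of FN1 and 28.2% of CCN1. TGFBI stood at 358 CPM (348 to 368) there and at 17.9 CPM (15.8 to 20.3) in podocyte-like cells. POSTN stood at 916 CPM (900 to 932) and at 50.9 CPM (47.3 to 54.7) in the same pair of classes. Both genes were far higher in stromal-like than in podocyte-like cells, and the next named class was proliferating-like for TGFBI and neural progenitor or glial-like for POSTN.

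Among the named classes FN1 and POSTN had a second site. FN1 stood at 161 CPM (155 to 168) in stromal-like cells while the neural progenitor or glial-like class had 123 CPM (116 to 131), a ratio of 1.31 (1.22 to 1.41), and POSTN stood at 561 CPM (546 to 577) in the latter. That class held 20.5% of the FN1 UMIs and 21.4% of the POSTN UMIs, while TNC had its lowest level there, at 1.59 CPM (0.891 to 2.63). THBS2 was scarce everywhere, at 10.4 CPM (8.76 to 12.3) in stromal-like cells from 142 UMIs, and had 0 UMIs in muscle-like cells, which at a limit of 3 counts allows up to 1.26 CPM there.

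The other 4 members were highest elsewhere. SPARC was highest in podocyte-like cells, at 955 CPM (939 to 971) against 595 CPM (582 to 608) in stromal-like cells, a ratio of 1.61 (1.56 to 1.65). THBS1 had the same order at a much lower count, with 20.2 CPM (18 to 22.7) in podocyte-like and 11.3 CPM (9.57 to 13.2) in stromal-like cells, a ratio of 1.79 (1.47 to 2.19). Podocyte-like cells held 36.3% of the SPARC UMIs and 40.9% of the THBS1 UMIs, out of 14.3% of all UMIs. With clustering at resolution 0.5 the class held 941 VC cells in place of 1390. It then had 6847 SPARC UMIs in place of 13697, and 252 THBS1 UMIs in place of 290. These shares thus depend on the clustering.

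TNC was highest in muscle-like cells, at 70.0 CPM (59.8 to 81.4) against 34.1 CPM (31.1 to 37.4) in stromal-like cells, though with 167 UMIs muscle-like cells held only 9.88% of it. Neuronal-like cells held 17.1% of the TNC UMIs and unnamed clusters 30.4%. FBLN1 was highest in proliferating-like cells at 262 CPM (245 to 279), next in stromal-like cells at 226 CPM (218 to 234), and lowest in podocyte-like cells at 52.9 CPM (49.2 to 56.8). Among clusters of any kind CCN1 peaked in an unnamed one of 489 VC cells led by C2CD4B, GJA4 and SOX17, at 72.1 CPM from 49 UMIs, above its 28.3 CPM in stromal-like cells. The cells of that cluster were shallow, with a median of 1685 UMIs over both libraries. FBLN1 and THBS1 also peaked in an unnamed cluster, of 226 VC cells led by HIST1H1B, HIST1H1D and TK1. There FBLN1 stood at 287 CPM from 549 UMIs and THBS1 at 21.4 CPM from 41 UMIs. This cluster had 7 of 8 proliferating markers raised over the other cells, and also 4 of 8 stromal and 4 of 7 mural markers. POSTN stood at 604 CPM in it, above the 561 CPM of the neural progenitor or glial-like class.

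**Figure D4:**
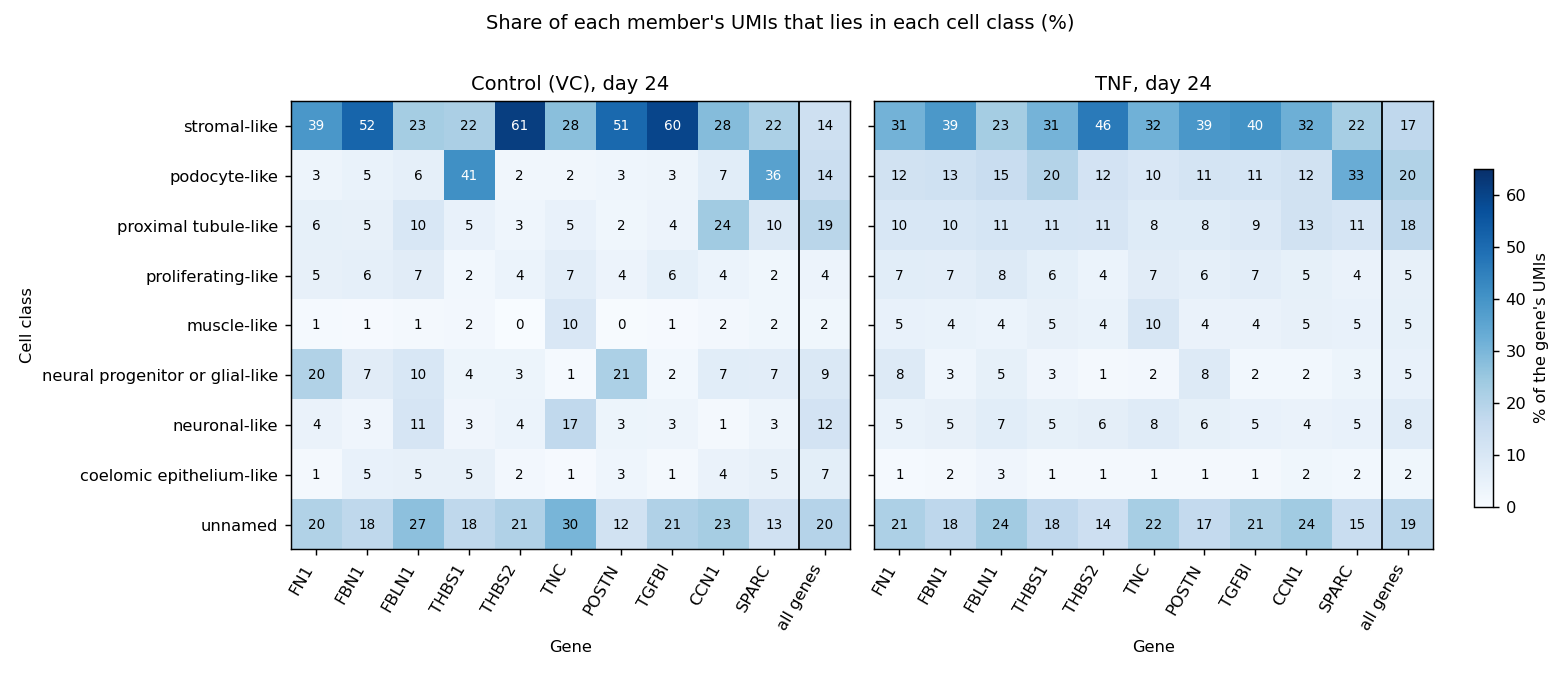
Percentage of each member's UMIs that lies in each cell class, for the VC library (left) and the TNF library (right), with the share of all UMIs in the last column. THBS2, TGFBI, FBN1 and POSTN have over 50% of their VC UMIs in stromal-like cells, and in that library THBS1 and SPARC have their largest share in podocyte-like cells.

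Over the 17 VC clusters of at least 100 cells, the genes whose pattern was most like a member's were found by Pearson's r of log2(CPM + 10) among 6240 genes. The clusters share 1 library and differ in depth, so r is a description. THBS2 reached at most 10.4 CPM in any of these clusters and THBS1 at most 21.4 CPM, so low counts limit their r. For FBN1 the nearest were GASK1B (0.966), COL5A1 (0.965) and HELLPAR (0.953), for TGFBI KCNE4 (0.955), AKAP12 (0.953) and RSPO3 (0.948), and for POSTN PLAT (0.953), MMP2 (0.913) and GASK1B (0.901). The nearest to THBS2 were SLC5A7 (0.931), VMP1 (0.922) and RSPO3 (0.921), and those to FN1 were MOXD1 (0.919), THY1 (0.880) and PCDH7 (0.875). SPARC was nearest to PARVA (0.906), MYL9 (0.876) and WASF2 (0.845), and THBS1 to SPPL2A (0.885), NFIC and DERL2 (0.852 each). For FBLN1 they were CEP78 (0.899), ZNF93 (0.895) and GJC1 (0.893), for CCN1 GADD45B (0.899), NIPSNAP2 (0.838) and ARHGDIB (0.836), and for TNC FST (0.876), ARMCX2 (0.850) and EPHA3 (0.838). Among the members themselves SPARC was nearest to THBS1, at 0.76.

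With TNFα at day 24, summed over whole libraries, CCN1 and THBS1 were the members furthest up, at 2.07 (1.94 to 2.22) and 2.04 (1.86 to 2.24) times the VC level. TNC was at 1.61 (1.51 to 1.71), FBN1 at 1.35 (1.29 to 1.41), THBS2 at 1.30 (1.09 to 1.56) and FBLN1 at 1.19 (1.16 to 1.22) times, and TGFBI at 1.13 (1.10 to 1.17) and SPARC at 1.08 (1.06 to 1.09). FN1 was at 0.915 (0.880 to 0.952) and POSTN at 0.988 (0.970 to 1.01). TNC, FBN1, THBS2, FBLN1 and TGFBI were higher both here and in the bulk set at 24 h. FN1, with a bulk difference of 0.72 at 24 h, was lower here, SPARC, at -0.13 in bulk, was higher here, and THBS1 and CCN1 had bulk differences of only 0.09 and 0.01 at that time. The bulk spheroids were Day 25 and the whole wells day 24, and these differences were not tested.

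Within stromal-like cells (2570 VC and 4416 TNF cells), THBS1, CCN1 and TNC were higher with TNFα, at 2.27 (1.88 to 2.75), 1.85 (1.63 to 2.09) and 1.43 (1.28 to 1.61) times the VC level, and the other 7 members were lower. FN1 was at 0.574 (0.537 to 0.613), POSTN at 0.592 (0.576 to 0.609) and TGFBI at 0.598 (0.572 to 0.625) times. Taking a step of 0.5 log2 units, THBS1, CCN1 and TNC were higher, beside 12% of 16222 genes with at least 20 UMIs, and FN1, POSTN and TGFBI lower, beside 12.6%. Within podocyte-like cells (1390 VC and 4508 TNF cells), SPARC and THBS1 were lower, at 0.679 (0.663 to 0.696) and 0.691 (0.582 to 0.819) times, beside 12.3% of genes, and the other 8 members were higher, from 2.19 (FBLN1) to 5.16 (TNC), beside 18.8% of 16396 genes. Within proximal tubule-like cells (1268 VC and 3566 TNF cells) 7 members were higher by that step, beside 15.6% of 16911 genes, and none was lower, beside 8.69%. In muscle-like cells (242 VC and 1613 TNF cells) TNC was lower, at 0.721 (0.591 to 0.883). FN1, FBN1, FBLN1, THBS1, POSTN, TGFBI and CCN1 were higher there, from 1.89 (FBLN1) to 4.38 (FBN1). In neural progenitor or glial-like cells FN1 was lower, at 0.714 (0.635 to 0.801), and so was POSTN, at 0.734 (0.696 to 0.775). There FBLN1, TGFBI, THBS1 and TNC were higher, from 1.21 (FBLN1) to 5.93 (TNC). These last classes were compared only with aligned libraries. At a finer clustering (resolution 0.5) 650 VC and 2178 TNF cells were proximal tubule-like and a separate cluster of 617 VC and 1388 TNF cells was distal tubule-like. At the resolution used here no distal tubule-like class stood apart. The proximal tubule-like class raised 8 of 9 proximal tubule markers, but also 3 of 8 distal tubule and 6 of 8 early nephron markers. It may thus hold the distal tubule-like cells, and its levels and ratios may not be those of proximal tubule-like cells alone. In the proximal tubule-like cells of the finer clustering 9 intervals of the ratio lay above 1 and that of CCN1 spanned 1, as in the class used here. The ratio there was 1.8 (1.49 to 2.17) for FN1, 3.66 (3.24 to 4.14) for POSTN and 2.53 (2.15 to 2.99) for TGFBI.

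Markers of other cell types moved with these ratios. In podocyte-like cells all 8 stromal markers were higher in the TNF library, summing to 1140 CPM with VC and 1610 CPM with TNF, and 5 of 7 mural markers were higher (195 and 347 CPM), while all 8 podocyte markers were lower (8310 and 4440 CPM). In proximal tubule-like cells the stromal markers (337 and 965 CPM) and the podocyte markers (192 and 572 CPM) were higher in the TNF library, 8 of 8 in each list. In stromal-like cells the stromal markers were lower in the TNF library (6740 and 4400 CPM, 8 of 8) and 7 of 8 podocyte markers were higher (328 and 480 CPM). The part of RNA from other cells in the ratios was not tested.

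The clusters of both libraries had been aligned to each other. Without alignment, 15172 TNF cells fell into 1 unnamed cluster, and 2268 TNF cells were stromal-like, 1210 podocyte-like and 763 proximal tubule-like. In that form the ratios in stromal-like cells were alike, at 2.27 (1.86 to 2.78) for THBS1, 2.15 (1.89 to 2.45) for CCN1, 1.58 (1.40 to 1.79) for TNC, 0.640 (0.595 to 0.688) for FN1, 0.668 (0.648 to 0.688) for POSTN and 0.693 (0.661 to 0.727) for TGFBI, while the intervals of FBLN1 and THBS2 spanned 1. In podocyte-like cells FBLN1 at 1.86 (1.67 to 2.07) and CCN1 at 1.70 (1.26 to 2.31) stayed above 1 and SPARC at 0.800 (0.777 to 0.824) and THBS1 at 0.426 (0.330 to 0.545) stayed below it. The remaining 6 did not keep their ratio: POSTN fell to 0.795 (0.691 to 0.912) and FN1, FBN1, THBS2, TNC and TGFBI had intervals that spanned 1. In proximal tubule-like cells 9 of the 10 intervals spanned 1, FBLN1 being the exception.

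**Figure D5:**
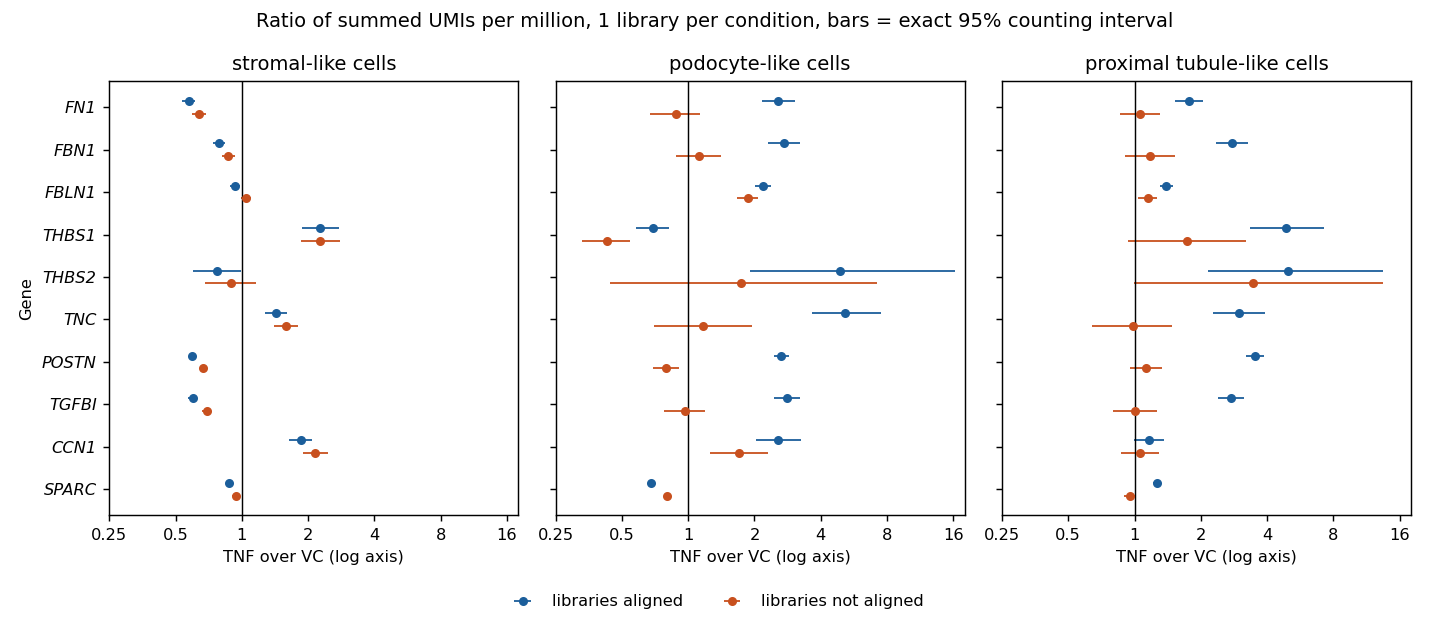
Ratio of each member's CPM in the TNF library to that in the VC library on a log axis, for 3 cell classes, with the libraries aligned (blue) and not aligned (orange) before clustering, and exact 95% counting intervals as bars. In stromal-like cells 8 of the 10 ratios stay clear of 1 on the same side under both settings, FBLN1 and THBS2 being the exceptions, and most podocyte-like and proximal tubule-like ratios move to near 1 without alignment.

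In the TNF library as a whole 7 members were highest in stromal-like cells among the named classes, the 6 of the VC library and THBS1, at 25.5 CPM (23.1 to 28.2) there and 14.0 CPM (12.3 to 15.8) in podocyte-like cells. FN1 no longer differed between stromal-like and neural progenitor or glial-like cells beyond counting error, at a ratio of 1.05 (0.940 to 1.18), nor TNC between muscle-like and stromal-like cells, at 1.03 (0.891 to 1.19). SPARC stayed highest in podocyte-like cells at 649 CPM (637 to 660) against 521 CPM (510 to 533) in stromal-like cells.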

How the data were processed

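The authors aligned bulk reads with STAR 2.7.8a to GRCh38, counted them per gene with HTSeq and deposited log2(CPM + 1) values, with 0.5 added to each count. Whole reads were recovered from all deposited log2 values. The authors deposited single-cell UMI counts made with Cell Ranger, whose version and build the sources give in more than one form. Gene positions came from GENCODE 44. The members and all gene lists were chosen with earlier results of these data known. Named were all 10 members, in each comparison the 4 related genes furthest up and down among those called, and the 3 genes most like each member.

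Bulk values were tested with limma 3.58.1 (trend) in R 4.3.3 and Benjamini-Hochberg adjustment over all genes at 0.05, with time as a term for TNF. It was tested on simulated data. Alternatives were edgeR 4.0.16 and DESeq2 1.42.0 on recovered reads, median centring, no 1 added, a mean value of at least 1, no trend, a replicate block, no time term and leaving out each library. Cells with over 500 genes were clustered with scanpy 1.11.5 and Leiden (resolution 0.25) after alignment of the libraries. The naming rules of at least 1 own marker among the top 10 genes and at least 50 cells were set after seeing the data. The automatic doublet threshold marked 0 cells. A fixed score over 0.25 marked 1.52% of VC and 2.3% of TNF cells, which were kept except in an alternative.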

Additional observations from a re-analysis of the deposited data

Results flagged for a closer look

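Effects of opposite sign under the same contrast are given here as values, and the differences between them were not tested. In bulk, TNF minus VC for THBS1 was 0.09 at 24 h and -0.23 at 48 h, and for POSTN 0.06 and -0.27, on the log2(CPM + 1) scale. SPARC on Day 29 minus Day 25 was 0.09 in set 1 and -0.06 in set 2.

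In the single-cell libraries the ratio of TNF to VC was below 1 in stromal-like cells and above 1 in podocyte-like cells for 6 members. It was 0.574 and 2.57 for FN1, 0.789 and 2.71 for FBN1, and 0.932 and 2.19 for FBLN1. It was 0.77 and 4.91 for THBS2, 0.592 and 2.65 for POSTN, and 0.598 and 2.8 for TGFBI. The THBS2 ratio in podocyte-like cells rested on 5 VC and 32 TNF UMIs, with an interval of 1.9 to 16.2. THBS1 went the other way, at 2.27 in stromal-like and 0.691 in podocyte-like cells. Without alignment of the libraries none of the 6 kept this opposition clear of its intervals: in podocyte-like cells FN1 (0.876), POSTN (0.795) and TGFBI (0.964) were below 1 and the intervals of FBN1 and THBS2 spanned 1, and FBLN1 was at 1.04 in stromal-like cells. THBS1 kept it, at 2.27 and 0.426.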

How the results depend on the processing

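Between Day 29 and Day 21, 8 or 9 members were called under the settings tried, with 2358 to 7075 genes called in all, and between Day 25 and Day 21, 6 or 7, with 241 to 2252 in all. These contrasts chose the members, so the counts are a description. Between Day 29 and Day 25 the count of 1 became 6 with edgeR, 4 with DESeq2 and 5 with median centring. It became 3 with no 1 added to the CPM, 4 with a mean value of at least 1 and 0 by limma without the trend. All genes called there numbered 574, against 1336 with edgeR, 1278 with DESeq2, 1233 with median centring, 1122 with a mean value of at least 1 and 209 without the trend. For TNF against VC, 6 members became 2 with no time term and 1 to 2 when each library was left out, a fit in which the lone library of an arm is assumed to vary like the others. All genes called there numbered 4061, against 2168 with DESeq2 and 1310 with no time term. The causes were not tested.

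The labels do not say whether replicate numbers pair the samples, and the main fit used no pairing. Deviations of same-numbered libraries from their day means were weakly and positively correlated, which does not settle it. The correlations were 0.143 (Day 21 and Day 25), 0.0753 (Day 21 and Day 29) and 0.270 (Day 25 and Day 29). With the replicate block 8, 7 and 3 members were called for Day 29 against Day 21, Day 25 against Day 21 and Day 29 against Day 25, and 6056, 2091 and 1118 genes in all.

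Alternatives for the ratio of TNF to VC within cell classes were chosen after seeing the data. Without alignment of the libraries the ratio changed sides of 1 in podocyte-like cells for FN1 (0.876), POSTN (0.795) and TGFBI (0.964), in proximal tubule-like cells for SPARC (0.955) and TNC (0.981), and in stromal-like cells for FBLN1 (1.04). Stromal-like cells were the highest named class in VC for 5 members without alignment and for 6 under the other alternatives.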
